A study of Mus musculus with 4 samples.

Results

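Expression of the tumor necrosis factor (TNF) superfamily, covering its ligands, its receptors and the TNF receptor-associated factors (Trafs), was compared between primary mammary tumors of female mice with and without deletion of Rank. The 48 genes were chosen by symbol from the 23746 gene rows measured, as every row named Tnfsf, Tnfrsf or Traf with a number, together with Tnf, Lta, Ltb, Ltbr, Fas, Fasl, Cd40, Cd40lg, Cd27, Cd70, Eda, Edar, Eda2r and Ngfr. Rank itself (Tnfrsf11a), its ligand and decoy (Tnfsf11 and Tnfrsf11b) and Traf6 were left out by that rule. The set held 17 ligands, 25 receptors and 6 Trafs. RNA came from 2 triple-mutant tumors (WapCre;Rank;Brca1;p53, tumors 26043 and 26044) and 2 double-mutant tumors (WapCre;Brca1;p53, tumors 26048 and 26050). Brca1 and p53 were deleted in both groups, so the genotypes differed in the Rank allele and no tumor with intact Brca1 and p53 is among these samples. The paper describes the WapCre transgene as active in luminal and basal mammary epithelial cells without pregnancy. Whether stromal, endothelial and immune cells of the bulk tumor keep all alleles is not reported there. The age of the mice and any pairing of littermates are not given in the labels.

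TNF ligands are mostly trimeric membrane proteins that can be shed, and they gather their receptors into clusters. Receptors with a death domain can recruit adaptors such as Fadd and Tradd toward caspase-driven or necroptotic death, while the other receptors bind Trafs, which lead through ubiquitin ligases and kinases to NF-kB and JNK signaling. In the mammary gland the family is best known for Rank and its ligand, which drive progenitor expansion downstream of progesterone, and many of the other ligands and receptors are used mainly between immune cells.

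Levels are given as FPKM, fragments per kilobase of transcript scaled to the fragments mapped in each tumor, so that genes can be compared per length. The deposited values keep no record of read numbers and the depth of each tumor is unknown. Rank was at 2.07 and 0.962 FPKM in the triple-mutant tumors and at 10.6 and 11.9 FPKM in the double-mutant tumors, which do not overlap. Whole-gene FPKM still counts exons that are not deleted. For Brca1 the values were 3.26 and 3.28 against 3.84 and 5.69 FPKM, and for Trp53 they were 15.7 and 87.8 against 149.7 and 103.1 FPKM. Triple-mutant tumor 26044 stood apart in its cell type markers. The summed FPKM of 6 pan-epithelial markers was 178 there and between 1403 and 2216 in the other tumors, and that of 8 endothelial markers was 122 against 33.8 to 62.4. Basal epithelial markers summed to 1775 and 1326 FPKM in triple-mutant and to 74.0 and 51.0 FPKM in double-mutant tumors, with 7 of 8 markers higher in both triple-mutant tumors. The triple-mutant sums were made up differently. Of the sum in tumor 26044, 898 FPKM was Acta2, which was at 64.8 FPKM in tumor 26043. In tumors 26043 and 26044, Krt5 was at 596 and 114 FPKM, Krt14 at 611 and 42.5 FPKM, and Trp63 at 28.5 and 48.1 FPKM. In bulk tissue, fewer cells of a type and less RNA per cell cannot be told apart.

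The genotypes were compared on log2(FPKM + 1) with limma over the 12752 genes that reached 1 FPKM in at least 2 tumors, a scale that understates the change of low genes. Of the 48 TNF family genes 30 reached this level (8 ligands, 16 receptors and all 6 Trafs) and 18 did not. Of the 30 genes, 0 had an adjusted p under 0.05, where 0% of all genes tested (0 of 12752) did, and the smallest adjusted p was 0.298 in the family and 0.064 over all genes (limma, Benjamini-Hochberg adjustment). At an unadjusted p under 0.05 there were 3 family genes, Tnfrsf18, Tnfrsf1b and Traf4, against 9.82% of all genes tested. In 11 of the 30 genes (21.3% of all genes) the lower triple-mutant tumor exceeded the higher double-mutant tumor, and in 6 (22.9% of all genes) the order was the opposite. Tnfsf8, Tnfrsf9 and Ngfr of the former and Tnfrsf22 of the latter reached 1 FPKM only in the genotype where they were higher. The filter itself thus favored their place in these counts. The median log2 fold change was 0.22 over the family and -0.02 over all genes tested. A single value compared between 2 and 2 tumors by an exact permutation test cannot reach a p below 0.333.

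Differences of at least 1 log2 unit without overlap of the genotypes were found for 9 genes. Higher in both triple-mutant tumors were the ligands Tnfsf8 and Tnfsf9, the receptors Tnfrsf18, Tnfrsf9, Tnfrsf21 and Ngfr, and Traf5, 7 of 30 genes where the share over all genes was 7.3%. Of these, Tnfsf8, Tnfrsf9 and Ngfr reached the level for testing through the triple-mutant tumors alone, so the filter itself favored their place here. With a filter of 5 FPKM only Tnfrsf18 and Tnfrsf21 were left (6.54% of all genes). Higher in both double-mutant tumors were Tnfrsf1b and Traf4, 2 of 30 genes where the share over all genes was 4.65%. The list of 7 rested in large part on tumor 26044. Without that tumor 5 genes were higher by this measure (9.54% of all genes), of which only Tnfrsf18 and Tnfsf9 were among the 7, and the others were Edar, Tnfsf10 and Traf1. The genes of the double-mutant side were Tnfrsf1b and Traf4 with all tumors and Tnfrsf1b alone without tumor 26044 (4.31% of all genes). Without tumor 26043 they were 5, with Tnf, Tnfrsf12a and Tnfsf13b added (12.2% of all genes). When the midpoint of the confidence interval that Cufflinks gives took the place of the FPKM, 4 of the 7 genes were left, Tnfrsf18, Tnfrsf21, Tnfrsf9 and Tnfsf8 (6.91% of all genes). Ngfr was not among the 29 family genes tested at that setting, and Tnfsf9 and Traf5 had log2 fold changes of 0.83 and 0.91.

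**Figure D1:**
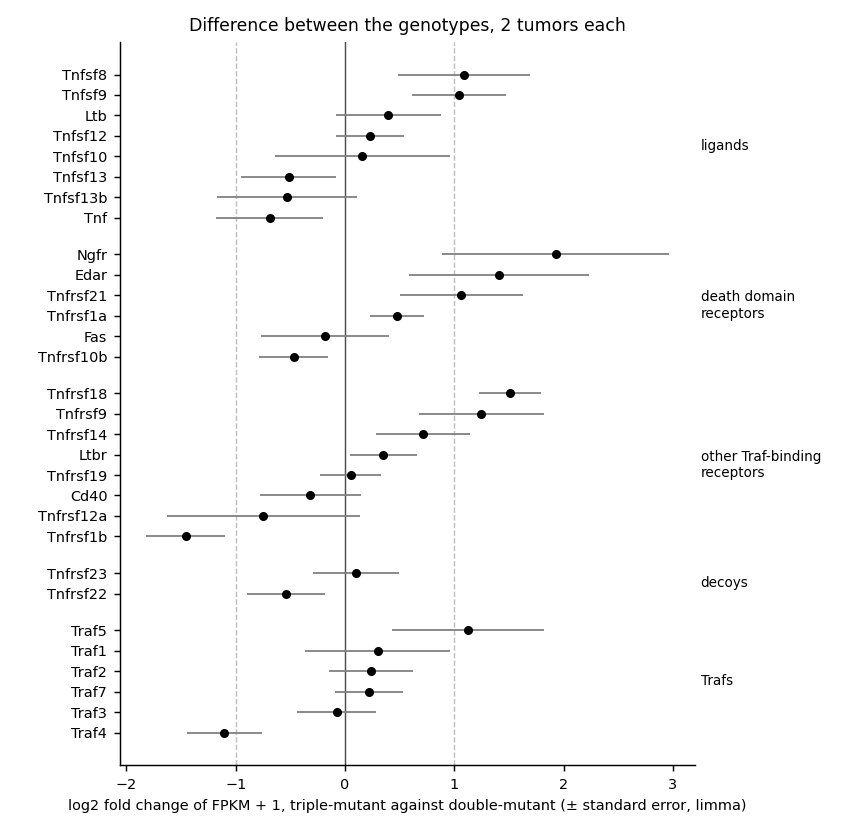
Log2 fold change of FPKM + 1 (horizontal axis, triple-mutant against double-mutant tumors, 2 each) for the 30 genes tested, grouped by role, with the standard error (SE) by limma as bars and dashed lines at 1 log2 unit in either direction. Ngfr has the largest estimate at 1.93 and the widest bar at 1.04, while Tnfrsf18 at 1.51 and Tnfrsf1b at -1.46 have bars of 0.28 and 0.36.

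Among the ligands, 8 of 17 were tested, and Tnfsf13 (April, a ligand for B-lineage cells) and Tnfsf12 (Tweak, the ligand of Fn14) were the most abundant by mean. Tnfsf12 was at 10.3 and 8.41 FPKM in triple-mutant and at 8.39 and 7.25 FPKM in double-mutant tumors. Tnfsf13 was at 8.11, 8.15 and 8.24 FPKM in tumors 26043, 26044 and 26048 and at 17.4 FPKM in tumor 26050. For Tnfsf12 the genotypes barely parted, and for Tnfsf13 1 double-mutant tumor alone stood higher. The genes lie on the same strand within 13.5 kb of chromosome 11 and share a fused transcript model (Tnfsfm13), so reads of the shared part could have been given to either.

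Tnfsf9, the ligand of the T cell costimulatory receptor 4-1BB, was at 4.82 and 4.79 FPKM in triple-mutant and at 2.88 and 1.04 FPKM in double-mutant tumors. This is a log2 fold change of 1.04 (standard error, SE, 0.43, adjusted p = 0.531 by limma), and it was 1.05 without tumor 26044 and 0.58 without tumor 26050. The triple-mutant tumors were nearly level, and the spread lay within the double-mutant pair. Tnfsf8, the ligand of CD30, was at 1.20 and 5.68 FPKM in triple-mutant and at 0.80 and 0.81 FPKM in double-mutant tumors. Its log2 fold change of 1.09 (SE 0.61, adjusted p = 0.598 by limma) fell to 0.29 without tumor 26044, which alone carried the high value.

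The other tested ligands did not part the genotypes by 1 log2 unit. Tnfsf10 (Trail, which triggers death through its receptor) was at 7.23 and 0.75 FPKM in the triple-mutant pair and at 2.52 and 2.28 FPKM in double-mutant tumors, so that the triple-mutant values lay on either side of the double-mutant ones. Tnf, the founding member of the family, was at 2.02 and 0.33 FPKM against 2.34 and 2.13 FPKM, both double-mutant tumors being higher by a small margin over tumor 26043. For Tnf, Tnfsf13b (Baff) and Ltb (lymphotoxin beta) the log2 fold changes were -0.69, -0.53 and 0.40. The 9 ligands below the level for testing stayed under 1 FPKM in every tumor, except Cd70. Cd70, the ligand of CD27, was at 2.36 FPKM in tumor 26044, at 0.22 FPKM in tumor 26043 and listed at 0 in both double-mutant tumors. Cd40lg, the ligand of CD40 on activated T cells, was listed at 0 in all 4 tumors.

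**Figure D2:**
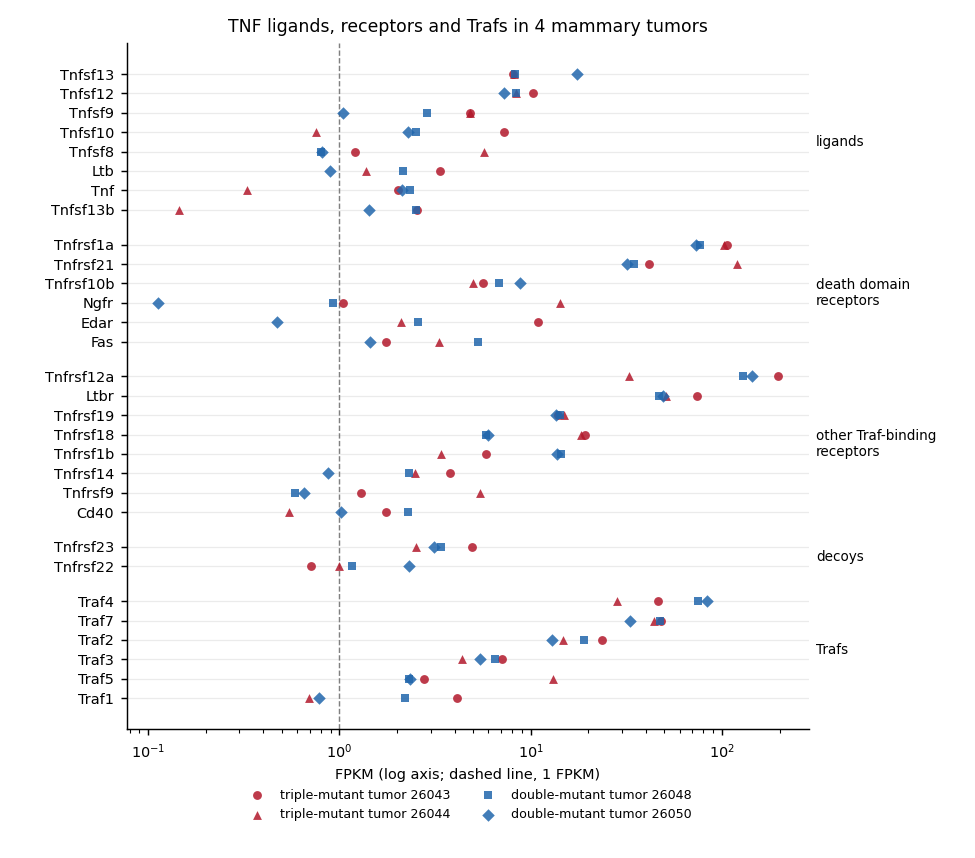
FPKM of the 30 tested genes (horizontal log axis) in each of the 4 tumors, with triple-mutant tumors in red and double-mutant tumors in blue, genes ordered by role and then by mean, and a dashed line at 1 FPKM. The points of Tnfrsf18 form a pair near 19 FPKM and a pair near 6 FPKM, whereas for Ngfr, Tnfrsf21, Tnfsf8 and Traf5 the triangle of tumor 26044 lies alone on the right.

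Of the receptors with a death domain, 6 of 7 were tested and Tnfrsf25 was not. Tnfrsf1a, the broadly expressed TNF receptor that signals through Tradd, was at 106 and 102 FPKM in triple-mutant and at 76.3 and 73.0 FPKM in double-mutant tumors. The genotypes did not overlap and each pair was tight, with 104.1 ± 3.0 against 74.7 ± 2.4 FPKM (SD, n = 2 each). The log2 fold change of 0.47 (SE 0.25, adjusted p = 0.584 by limma) was below 1 log2 unit and ran from 0.44 to 0.51 with each tumor left out. In all 4 tumors the FPKM of Tnfrsf1a lay outside the interval that Cufflinks gives for it. Per tumor this was so for 5558 to 6518 of the 12752 genes tested. Tnfrsf10b, the Trail receptor of the mouse, went the other way, with 5.65 and 5.02 FPKM in triple-mutant and 6.85 and 8.77 FPKM in double-mutant tumors (log2 fold change -0.47, adjusted p = 0.65 by limma).

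Tnfrsf21 (death receptor 6) and Ngfr (the p75 neurotrophin receptor) were high in tumor 26044. Tnfrsf21 was at 41.4 and 120.0 FPKM in triple-mutant and at 34.7 and 31.9 FPKM in double-mutant tumors, or a log2 fold change of 1.06 (SE 0.56, adjusted p = 0.586 by limma) that fell to 0.31 without tumor 26044. Ngfr was at 1.04 and 14.2 FPKM against 0.93 and 0.11 FPKM, or a log2 fold change of 1.93 (SE 1.04, adjusted p = 0.590 by limma) that fell to 0.48 without tumor 26044. Tumor 26043 lay just above the double-mutant tumors for both genes. Edar, the receptor of ectodysplasin in hair and gland placodes, was at 10.9 and 2.101 FPKM in triple-mutant and at 2.56 and 0.47 FPKM in double-mutant tumors, where the genotypes overlapped. Fas, the receptor of Fas ligand, was at 1.75 and 3.33 FPKM against 5.29 and 1.44 FPKM and overlapped as well.

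Tnfrsf18 (Gitr, a costimulatory receptor best known from regulatory T cells, chromosome 4 from 156026342 to 156028891 on mm10, plus strand) had the smallest p of the family. It was at 19.1 and 18.3 FPKM in the triple-mutant tumors and at 5.84 and 6.004 FPKM in the double-mutant tumors. Means were 18.7 ± 0.6 against 5.92 ± 0.12 FPKM (SD, n = 2 each), a ratio of 3.16 and a log2 fold change of 1.51 (SE 0.28, unadjusted p = 0.00418, adjusted p = 0.298 by limma). The difference between the genotypes was many times the gap within each pair, and the log2 fold change ran from 1.48 to 1.54 with each tumor left out in turn, while the adjusted p over all alternatives ran from 0.192 to 0.992. The ligand gene Tnfsf18 stayed between 0.071 and 0.128 FPKM. Tnfrsf4 (Ox40), the neighbouring gene on chromosome 4 within 15.2 kb, stayed under 1 FPKM in each tumor, between 0.29 and 0.77 FPKM. The ratio of Tnfrsf18 to Tnfrsf4 was 25.0 and 63.6 in triple-mutant and 9.31 and 20.8 in double-mutant tumors. This ratio is uncertain, because its denominator lay below the level for testing. T cell markers summed to 12.3 and 8.87 FPKM in triple-mutant and 7.77 and 11.7 FPKM in double-mutant tumors. Of these 12 markers 2 reached 1 FPKM in each tumor, 2 were higher in both triple-mutant and 0 in both double-mutant tumors, and the defining Cd3d, Cd3e and Cd3g stayed between 0.07 and 0.90 FPKM. Of the 8 basal epithelial markers, 7 were higher in the same tumors as Tnfrsf18, as given above, and their part in the result was not tested. An antisense gene model (Gm16008) overlaps the locus on the opposite strand.

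Tnfrsf1b (the TNF receptor found mainly on immune and endothelial cells, without a death domain, chromosome 4 from 145212368 to 145246870, minus strand) differed in the other direction. It was at 5.87 and 3.39 FPKM in triple-mutant and at 14.4 and 13.8 FPKM in double-mutant tumors. Means were 4.63 ± 1.75 against 14.1 ± 0.5 FPKM (SD, n = 2 each), 3.04 times as high in double-mutant tumors, with a log2 fold change of -1.46 (SE 0.36, unadjusted p = 0.0121, adjusted p = 0.409 by limma). It was -1.13 without tumor 26044 and -1.78 without tumor 26043. The ratio of Tnfrsf1a to Tnfrsf1b, the pair of receptors for Tnf, was 18.1 and 30.1 in triple-mutant and 5.30 and 5.31 in double-mutant tumors (exact permutation test, two-sided p = 0.333, the smallest possible). Tnfrsf1a was higher in both triple-mutant and Tnfrsf1b in both double-mutant tumors, so their ratio had to part the genotypes. The test of the ratio therefore adds no support. Macrophage markers summed to 684 and 316 FPKM in triple-mutant and to 812 and 607 FPKM in double-mutant tumors, and 5 of 11 were higher in both double-mutant tumors. Endothelial markers summed to 38.2 and 122 FPKM in triple-mutant and to 62.4 and 33.8 FPKM in double-mutant tumors. Of these 8 markers 1 was higher in both triple-mutant and 0 in both double-mutant tumors. The part of either cell type in the level of Tnfrsf1b was not tested.

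Because Tnfrsf18, Tnfrsf1b and Traf4 had the smallest p of the family, the sequence just upstream of their first exon is given (RefSeq promoter windows on GRCm38.p6, cut before the first GENCODE exon, 5′ to 3′ on the strand of the gene). Capitals mark the GC box GGGCGG or its reverse complement, the motif bound by Sp1 and related factors. The stretches lie at chr4:156026072-156026163 (plus strand) for Tnfrsf18, at chr4:145246871-145246970 (minus strand) for Tnfrsf1b and at chr11:78165590-78165689 (minus strand) for Traf4.
Tnfrsf18: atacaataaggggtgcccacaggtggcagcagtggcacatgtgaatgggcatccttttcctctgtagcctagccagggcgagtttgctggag
Tnfrsf1b: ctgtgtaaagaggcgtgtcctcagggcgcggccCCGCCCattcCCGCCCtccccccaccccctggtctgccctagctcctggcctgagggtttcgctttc
Traf4: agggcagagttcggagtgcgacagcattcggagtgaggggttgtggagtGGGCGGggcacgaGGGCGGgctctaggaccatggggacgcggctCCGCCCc
The stretch of Tnfrsf1b held 2 GC boxes, that of Traf4 held 3 and that of Tnfrsf18 held 0. Over the 250 bases before the start of transcription, a GC box on either strand was found in 20 of 43 windows of 39 family genes (46.5%) and in 32.7% of the 32851 windows of all genes. The NF-kB motif (kappa B) was found in 5 of the 43 windows (11.6%, against 7.25% of all windows), those of Tnfrsf8, Tnfrsf9, Tnfrsf25, Traf3 and Ltb. An AP-1 motif (TGANTCA) was found in 6 (14%, against 6.75%), a TATA box (TATAAA) in 6 (14%, against 12.4%) and a p53 half-site in 2 (4.65%, against 7.13%). These are matches of letters, and 9 family genes had no window.

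Tnfrsf12a (Fn14, the receptor of Tweak, raised in many injured or growing epithelia) was the most abundant receptor by mean. It was at 196.9 and 32.8 FPKM in triple-mutant and at 129 and 144 FPKM in double-mutant tumors, so that the triple-mutant pair differed by 2.55 on the log2 scale and enclosed the double-mutant pair. Its log2 fold change of -0.75 turned to 0.53 without tumor 26044. Ltbr, the lymphotoxin beta receptor, which signals to alternative NF-kB, was at 73.9 and 50.9 FPKM against 46.8 and 49.2 FPKM. Tnfrsf19 (Troy), an orphan receptor linked to Wnt-active stem cells, was level, with 13.9 and 15.0 FPKM in triple-mutant and 14.2 and 13.6 FPKM in double-mutant tumors.

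Tnfrsf9 (4-1BB), a costimulatory receptor of T cells, was at 1.30 and 5.42 FPKM in triple-mutant and at 0.59 and 0.65 FPKM in double-mutant tumors. The log2 fold change was 1.25 (SE 0.57, adjusted p = 0.548 by limma) and 0.51 without tumor 26044. Both triple-mutant tumors were above the double-mutant ones, and tumor 26044 was well above tumor 26043. Camta1 overlaps Tnfrsf9 on the opposite strand, and whether the strand of reads was used for the FPKM is not given in the sources used here. Tnfrsf14 (Hvem, a receptor of Light and Btla) was at 3.80 and 2.48 FPKM against 2.30 and 0.88 FPKM, or a log2 fold change of 0.71 (adjusted p = 0.620 by limma). Cd40, the receptor of antigen-presenting cells for T cell help, was between 0.55 and 2.28 FPKM and overlapped.

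The other 7 receptors of this class, Cd27, Tnfrsf4, Tnfrsf8, Tnfrsf13b, Tnfrsf13c, Tnfrsf17 and Eda2r, stayed under 1 FPKM in every tumor. Most of them are receptors of lymphocytes. B cell markers summed to between 1.37 and 1.94 FPKM and natural killer cell markers to between 0.20 and 1.84 FPKM per tumor. Pax5, a defining B cell factor, was at 0 in all tumors. The decoy receptors Tnfrsf22 and Tnfrsf23, which bind Trail without a death domain, were at 0.71 and 0.99 against 1.17 and 2.32 FPKM and at 4.94 and 2.50 against 3.40 and 3.11 FPKM. Tnfrsf22 reached the level for testing through the double-mutant tumors alone. Tnfrsf22, Tnfrsf23 and Tnfrsf26 are similar neighbouring copies within 78.2 kb of chromosome 7, so reads could have been split between them.

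The summed FPKM of the 25 receptors was 493 and 382 in triple-mutant and 351 and 352 in double-mutant tumors. The same 4 receptors, Tnfrsf12a, Tnfrsf1a, Ltbr and Tnfrsf21, gave 84.9% and 80.1% of it in triple-mutant and 81.9% and 84.6% in double-mutant tumors. Their order differed in tumor 26044, where Tnfrsf21 came first with 31.4%, while Tnfrsf12a came first in the other tumors with 36.9% to 40.8%. The summed FPKM of the 17 ligands was lower, at 41.4 and 33.2 against 31.1 and 34.4.

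Among the Trafs, all 6 were tested. Traf4, which was first found in metastatic breast cancer and is abundant in epithelia (chromosome 11 from 78158423 to 78165550, minus strand), was at 46.2 and 28.3 FPKM in triple-mutant and at 74.7 and 83.6 FPKM in double-mutant tumors. Means were 37.2 ± 12.6 against 79.2 ± 6.3 FPKM (SD, n = 2 each), 2.13 times as high in double-mutant tumors, with a log2 fold change of -1.11 (SE 0.34, unadjusted p = 0.0262, adjusted p = 0.480 by limma). The genotypes did not overlap, and the log2 fold change was -0.76 without tumor 26044 and -1.45 without tumor 26043. Traf5, an adaptor of lymphocyte receptors such as Ox40 and CD27, was at 2.77 and 13.1 FPKM in triple-mutant and at 2.32 and 2.35 FPKM in double-mutant tumors. Its log2 fold change of 1.13 (SE 0.70, adjusted p = 0.630 by limma) fell to 0.18 without tumor 26044, the tumor that alone stood out.

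Traf7, which binds Mekk3 and carries WD40 repeats in place of the Traf domain, was at 48.2 and 44.3 FPKM against 47.6 and 32.9 FPKM. Traf2, the main adaptor that brings cIAP ligases to TNF receptors, was at 23.6 and 14.8 FPKM against 19.1 and 12.9 FPKM, and Traf3, a brake on alternative NF-kB, was at 7.11 and 4.37 FPKM against 6.51 and 5.45 FPKM. Traf1, itself an NF-kB target, was at 4.11 and 0.70 FPKM against 2.20 and 0.78 FPKM. For these 4 Trafs the values of the genotypes overlapped. Traf7 took the largest share of the summed Traf FPKM in triple-mutant tumors (36.5% and 42.0%) and Traf4 in double-mutant tumors (49.0% and 60.6%). The ratio of Traf4 to Traf2 was 1.96 and 1.92 in triple-mutant and 3.91 and 6.48 in double-mutant tumors, and that of Traf4 to Traf7 was 0.958 and 0.639 against 1.57 and 2.54. For both ratios the exact permutation test gave a two-sided p of 0.333, the smallest possible. Traf4 by itself already parted the genotypes, so these tests add no separate support. The ratio of Traf5 to Traf2 overlapped, with 0.117 and 0.883 against 0.121 and 0.182 (exact permutation test, two-sided p = 1). Rab26 overlaps Traf7 on the same strand.

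**Figure D3:**
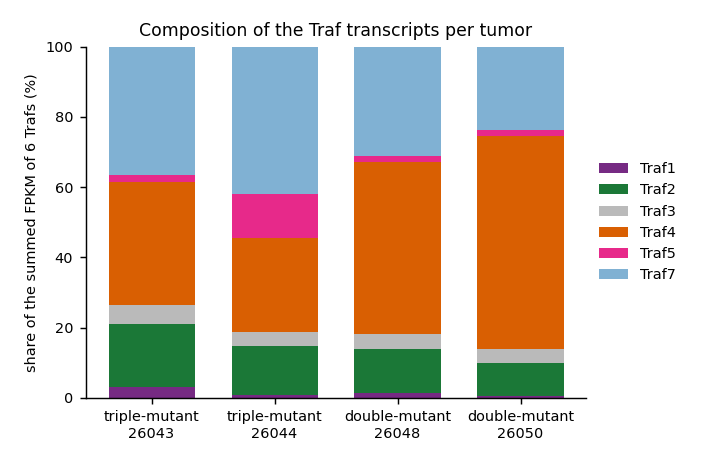
Share (vertical axis, %) of each of the 6 Trafs in the summed FPKM of the Trafs in each tumor, triple-mutant tumors on the left. Traf4 (orange) takes 49.0% and 60.6% in the double-mutant tumors and is second to Traf7 (blue) in the triple-mutant tumors, and the band of Traf5 is widest in tumor 26044.

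Ligands and receptors were then set side by side for 23 known pairs of the family. Both partners reached 1 FPKM in all 4 tumors for 1 pair, Tnfsf12 and Tnfrsf12a. For 5 pairs this was so in 2 or 3 of the tumors, namely Tnf with Tnfrsf1a and with Tnfrsf1b, Ltb with Ltbr, Tnfsf10 with Tnfrsf10b, and Tnfsf9 with Tnfrsf9, and for 17 pairs in no tumor. Tnfsf9 with Tnfrsf9 reached it in the 2 triple-mutant tumors alone. In 4 pairs the receptor reached 1 FPKM in every tumor and the ligand in none, namely Lta with Tnfrsf1a, Tnfsf14 with Ltbr, Fasl with Fas, and Tnfsf18 with Tnfrsf18. The opposite was seen for Tnfsf13, a ligand above 8 FPKM throughout whose receptors Tnfrsf13b and Tnfrsf17 stayed under 1 FPKM. Tnfrsf8, the receptor of Tnfsf8, was at no more than 0.19 FPKM in any tumor.

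**Figure D4:**
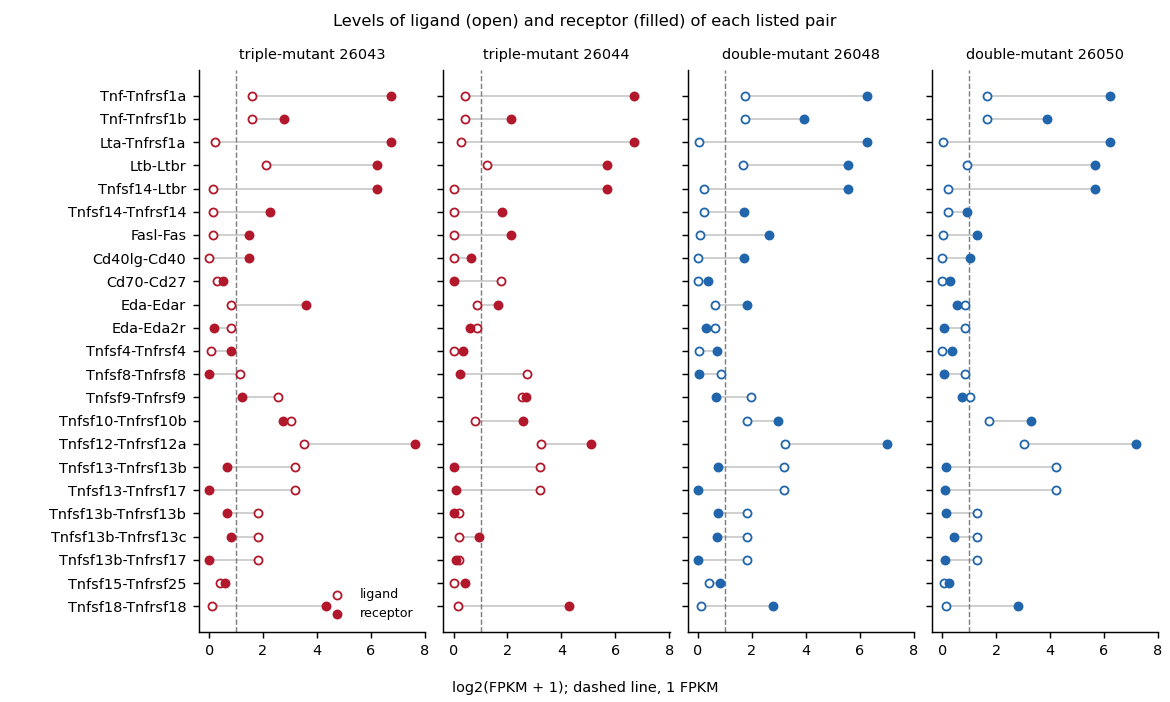
Level as log2(FPKM + 1) (horizontal axis) of the ligand (open circle) and the receptor (filled circle) of 23 pairs, with 1 panel per tumor and a dashed line at 1 FPKM. Both circles lie right of the line in all 4 panels for Tnfsf12 with Tnfrsf12a alone, and the open circles of the ligands Fasl, Cd40lg and Tnfsf18 lie left of it throughout.

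Of the 48 family genes 23 lie in 9 groups whose neighbours are within 500000 bases of each other, and levels differed between neighbours in several of them. On chromosome 4, Tnfrsf1b was tested and Tnfrsf8, within 103 kb, was not, and Tnfsf8 was tested and Tnfsf15, within 137 kb, was not. In the group of Cd27, Ltbr and Tnfrsf1a on chromosome 6 (130 kb), the latter genes were among the most abundant receptors and Cd27 stayed under 1 FPKM. Tnfsf4, Tnfsf18 and Fasl on chromosome 1 were all under 1 FPKM.

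The spread within a genotype was wide in the triple-mutant pair. The median absolute difference between its tumors was 0.67 on the log2 scale over the 30 family genes and 0.45 over all genes, and between the double-mutant tumors it was 0.20 and 0.36. Tumor 26044 was the highest of the 4 tumors by at least 1 log2 unit for 5 of the 30 genes (Tnfsf8, Ngfr, Tnfrsf21, Tnfrsf9 and Traf5), a share of 16.7% against 4.41% of all genes. It was the lowest by that margin for 3 (Tnf, Tnfsf13b and Tnfrsf12a), or 10% against 4.8%. Tnfsf8, Ngfr and Tnfrsf9 reached the level for testing through the triple-mutant tumors alone. Tumor 26043 was the highest for Tnfsf10 and Edar (6.67% against 2.96%), tumor 26050 was the lowest for Edar, and tumor 26048 was neither for any. In tumor 26044 the low pan-epithelial and the high endothelial marker sums given above went with these values, and their part was not tested.

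Downstream and partner genes were taken from 6 lists of 80 genes in all, of which 72 were tested and 0 had an adjusted p under 0.05. Of the 72 genes, 12 had an unadjusted p under 0.05 (9.82% of all genes), 14 were higher in both triple-mutant and 18 in both double-mutant tumors (21.3% and 22.9% of all genes), and 6 in each direction differed by at least 1 log2 unit (7.3% and 4.65% of all genes). The median log2 fold change was -0.04 over the 72 genes. These counts include genes such as Bdnf and Ccl20 that reached the level for testing only through the genotype where they were higher.

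The list of death adaptors and executors had 11 genes tested, with 1 higher in both triple-mutant and 4 in both double-mutant tumors (21.3% and 22.9% of all genes) and a median log2 fold change of -0.50. Cradd, an adaptor with a death domain and a CARD, was at 3.72 and 2.47 FPKM in triple-mutant and at 9.25 and 11.0 FPKM in double-mutant tumors (log2 fold change -1.45, adjusted p = 0.396 by limma). Mlkl, the effector of necroptosis, was at 15.5 and 4.49 FPKM against 20.5 and 16.9 FPKM, and its log2 fold change of -1.04 moved to -0.25 without tumor 26044. For both genes the double-mutant tumors were higher without overlap, and for Mlkl only narrowly above tumor 26043.

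Of the ubiquitin ligases, deubiquitinases and brakes, 15 of 16 genes were tested, with 3 higher in both triple-mutant and 3 in both double-mutant tumors (21.3% and 22.9% of all genes). By at least 1 log2 unit there were 0 in either direction (7.3% and 4.65% of all genes). Of the 15 kinases 2 were higher in both triple-mutant and 6 in both double-mutant tumors, where the shares over all genes were again 21.3% and 22.9%. Map4k2, a kinase that binds Traf2 upstream of JNK, was at 10.2 and 22.6 FPKM in triple-mutant and at 4.73 and 3.51 FPKM in double-mutant tumors, or a log2 fold change of 1.68 (adjusted p = 0.470 by limma).

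Ntf5 and Bdnf, which are ligands of Ngfr, were higher in both triple-mutant tumors. Ntf5 was at 8.96 and 11.3 FPKM in triple-mutant and at 2.105 and 3.13 FPKM in double-mutant tumors, or a log2 fold change of 1.63 (SE 0.34, adjusted p = 0.347 by limma). Bdnf was at 1.14 and 5.20 FPKM against 0.29 and 0.11 FPKM, and it reached the level for testing through the triple-mutant tumors alone. The log2 fold changes without tumor 26044 were 1.48 for Ntf5 and 0.84 for Bdnf. Both genes, like Ngfr, were highest in tumor 26044. The list of the Eda adaptor and neurotrophin partners had 6 of 9 genes tested, 4 of them higher in both triple-mutant (21.3% of all genes) and 0 in both double-mutant tumors (22.9% of all genes). This count includes Bdnf, which passed through the triple-mutant tumors alone, so the filter itself favored it.

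Among 8 tested genes of shedding and the membrane, Timp3, an inhibitor of the sheddase Adam17 that releases Tnf and its receptors, had the largest difference of all lists. It was at 118 and 60.7 FPKM in triple-mutant and at 10.4 and 6.22 FPKM in double-mutant tumors, 10.8 times as high by mean, with a log2 fold change of 3.24 (SE 0.46, adjusted p = 0.199 by limma). It stayed between 2.77 and 3.71 with each tumor left out.

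Of the 17 tested TNF-inducible NF-kB targets, 2 were higher in both triple-mutant tumors, 3 in both double-mutant tumors (21.3% and 22.9% of all genes), and 12 overlapped. Tnfaip2, induced by Tnf in endothelial and epithelial cells, was at 26.0 and 24.1 FPKM in triple-mutant and at 4.91 and 5.49 FPKM in double-mutant tumors (log2 fold change 2.07, SE 0.29, adjusted p = 0.196 by limma). Ier3, an early response gene of cell survival, was at 88.3 and 60.1 FPKM against 195.6 and 239 FPKM. The chemokine Ccl2, which draws monocytes, was at 3.87 and 2.49 FPKM against 10.9 and 12.1 FPKM, and Ccl20, which draws Ccr6-bearing cells, was at 0.82 and 0.28 FPKM against 3.705 and 7.51 FPKM. Ccl20 reached the level for testing through the double-mutant tumors alone. Within this list Tnfaip2 thus lay on the triple-mutant side and Ier3, Ccl2 and Ccl20 on the double-mutant side, with log2 fold changes of -1.56, -1.60 and -2.05 for the latter.

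**Figure D5:**
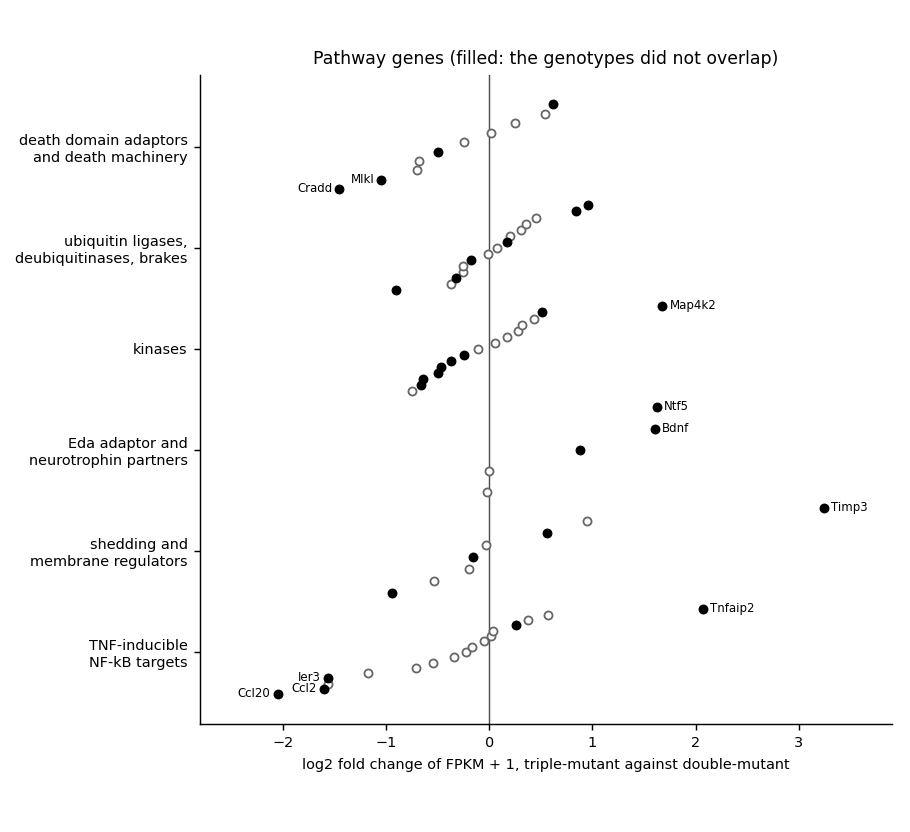
Log2 fold change of FPKM + 1 (horizontal axis, triple-mutant against double-mutant tumors, 2 each) of 70 of the 72 tested pathway genes by list, 1 circle per gene, filled where the genotypes did not overlap. Named are the filled genes beyond 1 log2 unit, from Ccl20 at -2.05 to Timp3 at 3.24, and the circles of most lists lie on both sides of 0.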

How the data were processed

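PolyA RNA of 4 mammary tumors was converted to dUTP-marked cDNA by the authors, sequenced as 50-bp single-end reads, aligned with TopHat2 2.0.10 and Bowtie 0.12.9 to mm10 and quantified as FPKM with Cufflinks 2.1.1 (versions per the submitters' processing notes). The deposited FPKM tables were joined on symbol and position, since their row order differs. Read counts were not analysed here. All 48 symbols matched an overlapping GENCODE M21 gene on GRCm38, and 18 loci hold another gene. Starts, counted from 0 in the tables, were raised by 1.

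Genes with at least 1 FPKM in 2 tumors were tested on log2(FPKM + 1) with limma 3.58.1 in R 4.3.3 (eBayes with a trend, Benjamini-Hochberg adjustment over 12752 genes, threshold 0.05). The code of the fit was checked on simulated data with 200 changed genes. There every gene had the same spread, unlike in these tumors, so the check does not measure the power to find changes of the size seen here. Each p sets the difference between the genotypes against the spread within them, which limma moderates with that of all genes tested. Tables were handled with pandas 2.3.3 and numpy 2.4.6 in Python 3.11.15, and plots were drawn with matplotlib 3.10.9. The genes and the role, pathway and marker lists were chosen with earlier results of these data known. Genes were named with values in every tumor where the genotypes did not overlap by at least 1 log2 unit, for partners of such genes, for the 5 most abundant ligands and receptors, every Traf, the 3 smallest p and differences of 2 log2 units within a genotype. In the pathway lists up to 3 genes per list and direction were named, except that the single values of 2 tested genes are not reported here, and other genes were added for their role. Alternatives were a smaller pseudocount (0.1), a filter at 5 FPKM or none, rescaling to TPM, quantile normalization, no trend, the midpoint of the Cufflinks interval, genes of status OK, no small RNA genes, and each tumor left out.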

Additional observations from a re-analysis of the deposited data

How the results depend on the processing

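Under all 9 alternatives with every tumor kept and all 4 fits without a tumor, 0 family genes and 0 pathway genes had an adjusted p under 0.05 in limma. The smallest adjusted p of a family gene was 0.129. Over all genes the count was 6 with quantile normalization, 5 without the trend and 1 with the interval midpoint, and 0 in the fits without a tumor. The cause was not tested. Rescaling to TPM left 9 of 32 tested family genes higher in both triple-mutant tumors (19.6% of all genes). With quantile normalization there were 9 of 30 (19.9% of all genes), and by 1 log2 unit 5 (6.86%), without Ngfr and Traf5. Higher in both double-mutant tumors were 4 family genes at either setting (21.4% and 25.6% of all genes). Family genes higher in both triple-mutant tumors numbered 5 of 14 tested with a filter of 5 FPKM (20.9% of all genes), and those by 1 log2 unit 2 (6.54%). With a tumor left out they numbered 11 to 21 of 30, 21 without tumor 26044 (40.2% of all genes), 17 without 26048 (36.4%), 12 without 26043 (33.2%) and 11 without 26050 (30.8%). Those higher in both double-mutant tumors numbered 6 to 13, 13 without tumor 26043 (45.1% of all genes), 8 without 26050 (36.3%) and 6 without 26044 (31.9%) or 26048 (34.6%). At an unadjusted p under 0.05 there were 1 to 11 family genes with a tumor left out, 11 of them without tumor 26043, where the share over all genes rose to 17.4%, and 1 without tumor 26050 (3.99%). With 1 tumor left in a genotype, that tumor was assumed to vary like the others.

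In every one of these fits that tested them, 19 of 30 genes kept the sign of their log2 fold change. It was -0.0017 for Tnfsf10 with a pseudocount of 0.1. With a tumor left out it ran from -0.044 to 0.83 for Ltb, -0.96 to 1.28 for Tnfsf10, -1.35 to 0.28 for Tnfsf13b, -0.87 to 0.50 for Fas, -0.73 to 0.10 for Cd40, -2.02 to 0.53 for Tnfrsf12a, -0.28 to 0.48 for Tnfrsf23, -0.50 to 1.10 for Traf1, -0.083 to 0.56 for Traf2, -0.37 to 0.22 for Traf3 and -0.043 to 0.48 for Traf7. No paired analysis was run. The paper describes the females of the compared genotypes as littermates, but the labels do not say which tumors came from the same litter.

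Depth is unknown. Cufflinks gives each FPKM an interval, whose median half-width was 12.1% to 16.1% for the tested family genes and 8.36% to 9.05% for all genes. In each tumor the FPKM of 8 to 10 of the 30 genes fell outside this interval. Over all 12752 genes tested it did so for 5558 to 6518 per tumor, so this was not particular to the family. It fell outside in all 4 tumors for 6 family genes, Tnfrsf1a, Tnfrsf21, Ltbr, Traf2, Traf4 and Traf5.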

Other observations

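Markers of other cell types differed widely between tumors of one genotype and are given as values. Fibroblast markers summed to 242 and 139 FPKM in triple-mutant and to 957 and 465 FPKM in double-mutant tumors. Of these 10 markers 5 were higher in both double-mutant tumors and 1, Pdgfra, in both triple-mutant tumors. Adipocyte markers summed to 9.43 and 261 FPKM in triple-mutant and to 2015 and 36.4 FPKM in double-mutant tumors. Of the sum in tumor 26044 nearly all was Fabp4 (261.1 FPKM), with Adipoq and Plin1 at 0, whereas 5 of 6 markers reached 1 FPKM in tumor 26048. Luminal epithelial markers summed to 2569 and 415 FPKM against 1704 and 1640 FPKM. Skeletal muscle markers reached 34.6 FPKM in tumor 26050 and at most 2.95 FPKM in the others, and mast cell markers 6.63 FPKM in tumor 26050 and at most 1.73 FPKM in the others. Neutrophil markers, 5 of the 6 listed genes, summed to 37.8 and 9.96 FPKM in triple-mutant and to 10.8 and 52.4 FPKM in double-mutant tumors. Dendritic cell markers summed to 5.71 to 7.79 FPKM and epidermal markers to 1.73 to 8.39 FPKM. The part of these cell types in the levels of the TNF family was not tested.

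Ntf3, a neurotrophin that did not reach the level for testing, was at 18.5 FPKM in tumor 26044, where Ngfr was also highest, and under 1 FPKM in the other tumors. It was singled out after its values were seen.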
